A study of Mus musculus with 2 samples.

Results

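The 9 genes described here store, import, export or release iron, or sense it: Ftl1, Fth1, Tfrc, Slc11a2, Slc40a1, Hmox1, Aco1, Ireb2 and Ncoa4. They are 9 of the 33696 features in the count matrix of 1 single-cell library, and each was found once by its symbol. The set was chosen by function, with earlier values of these same cells known (their levels in the A and B cells defined below), so its differences between those groups are given as descriptions, with no test.

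Cells take up iron bound to transferrin through the transferrin receptor and hold what they do not use inside ferritin, a hollow shell built from light and heavy chains. Ferroportin is the known exporter of iron from mammalian cells, and heme oxygenase frees iron from heme. The iron regulatory proteins bind hairpins in the messenger RNAs of several of these genes when iron is scarce. They block translation from hairpins in a 5′ untranslated region and slow decay of the transferrin receptor messenger, which carries its hairpins in the 3′ untranslated region. For ferritin and ferroportin this control acts on translation, which counts of messenger do not show.

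The cells were from KPCY 6419c5, a mouse pancreatic ductal adenocarcinoma line carrying the BASELINE lineage recorder, which an adenine base editor built on Cas12a writes to. Per the labels, 2 clones of this line, 76 and 84, were each grown from a single sorted cell, edited for 19 days, mixed 1:1 and run as 1 droplet library with 3′ v4 chemistry. Both clones carried the recorder and the editor, and no unedited sample was measured. A second sample, with 5 clones, was not analysed here.

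A pair of marker sets divided the cells. A cells had at least 2 unique molecular identifiers (UMIs, each standing for 1 captured RNA molecule) of Pde10a, Plcb1, Galnt18, Arhgap15 and Ceacam1 together, and at least 3 times as many as of the other set. B cells met the same rule for S100a7a, Rgs20, Hs6st2, Ccbe1, Ctse and Mal. No iron gene is in either set. Barcodes with under 2000 UMIs, under 1000 detected genes or over 15% of UMIs from mitochondrial genes were dropped, which kept 21361 of 22178. Of these, 7816 (36.6%) were A cells, 8936 (41.8%) were B cells, 643 (3.01%) had enough marker UMIs but met neither margin (mixed cells) and 3966 (18.6%) had too few marker UMIs. The labels do not say which group is which clone, and whether each group is a clone was not tested. The median depth was 4699.5 UMIs in A cells and 5440.5 UMIs in B cells, and the median mitochondrial share was 3.19% and 1.89%. All 7 ductal epithelial markers examined were detected in both groups, at a summed 2739 counts per 1000000 (CPM, UMIs scaled to the group's total) in A cells and 7584 CPM in B cells. Keratins made up most of that sum. Sox9 was at 1.91 CPM in A cells, and Epcam was higher in A cells, at 31.8 against 3.16 CPM. Summed markers of macrophages, which recycle iron, reached 1.44 and 0.701 CPM, with Cd163 at 0 in both groups, and summed acinar markers reached 13.7 and 4.38 CPM, with Cpa1 and Amy2a2 at 0. Cells of 1 library are not replicates, so no p-value was computed. The intervals in brackets are exact 95% intervals: Poisson for sums, Clopper-Pearson for shares and conditional binomial for ratios. All cover counting error only. A level is a share of all UMIs of the group, so a difference in total RNA per cell is not seen.

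Iron-responsive hairpins found in these genes by a sequence pattern are shown first, because they tie ferritin, ferroportin and the transferrin receptor to the same regulatory proteins. The pattern searched was a C, any 5 bases, the loop CAGTG followed by A, C or T, and 5 bases pairing with the 5 before the loop, on the transcript strand, within the untranslated regions of protein-coding transcripts of GENCODE M21 (genome build GRCm38). Only A, C or T was allowed after CAGTG, and G may pair with T. No bulge or unpaired base was allowed within the 5 pairs, so hairpins of other shapes would be missed. A gene without a match may still carry a hairpin, and a gene with matches may carry more. The pattern was found 7 times in 4 of the 9 genes. In 5′ untranslated regions it was present in 20 of 19998 genes (0.10%) and in 3 of the 9, namely Ftl1, Fth1 and Slc40a1. In 3′ untranslated regions it was present in 96 of 20744 genes (0.463%) and in 1 of the 9, Tfrc, which held 4 copies. The 3 sites in 5′ untranslated regions lie at chr7:45459779-45459807 on the minus strand (Ftl1), chr19:9982732-9982760 on the plus strand (Fth1) and chr1:45925465-45925493 on the minus strand (Slc40a1). The 4 Tfrc sites lie on the plus strand at chr16:32631219-32631247, chr16:32631598-32631626, chr16:32631663-32631691 and chr16:32631710-32631738. Each is printed 5′ to 3′ with the 6 loop bases in capitals.
Ftl1, 5′ untranslated region: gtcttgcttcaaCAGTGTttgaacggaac
Fth1, 5′ untranslated region: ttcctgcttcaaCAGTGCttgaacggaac
Slc40a1, 5′ untranslated region: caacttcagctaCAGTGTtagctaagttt
Tfrc, 3′ untranslated region, site 1: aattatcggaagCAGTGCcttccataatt
Tfrc, 3′ untranslated region, site 2: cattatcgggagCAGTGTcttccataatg
Tfrc, 3′ untranslated region, site 3: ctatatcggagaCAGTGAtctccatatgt
Tfrc, 3′ untranslated region, site 4: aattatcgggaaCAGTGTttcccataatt
The 5 paired bases before the loop and the 5 after it were the same in Ftl1 and Fth1, and were others in Slc40a1 and in each Tfrc site. A match to this pattern is a description of the letters and no evidence of binding in these cells. The 4 genes that carry it did not share a direction between the groups: Ftl1 and Slc40a1 were higher in A cells, Fth1 was higher in B cells, and Tfrc was near equal.

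Ftl1 and Fth1 encode the light chain of ferritin, which helps to build the iron core, and the heavy chain, which oxidises incoming iron. The light-chain messenger was higher in A cells and the heavy-chain messenger higher in B cells. Ftl1 was at 7014 CPM (6988 to 7040) in A cells and 2552 CPM (2538 to 2565) in B cells, a ratio of 2.75 (2.73 to 2.77). It was the 3rd most abundant feature in A cells and the 58th in B cells. Fth1 went the other way, at 2826 CPM (2810 to 2843) in A cells and 4445 CPM (4427 to 4463) in B cells, so that it was 1.57 times (1.56 to 1.58) higher in B cells. It ranked 46th in A cells and 15th in B cells. Of all UMIs of both chains, Ftl1 made up 71.3% (71.1 to 71.4) in A cells and 36.5% (36.3 to 36.6) in B cells. The sum of both chains was 9841 CPM in A cells and 6997 CPM in B cells, so the total differed less than either chain's share. These shares are of UMIs and serve to compare the groups. The 3′ assay may capture the chains with unequal efficiency, so a share above or below 50% does not say which messenger was in excess.

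**Figure D1:**
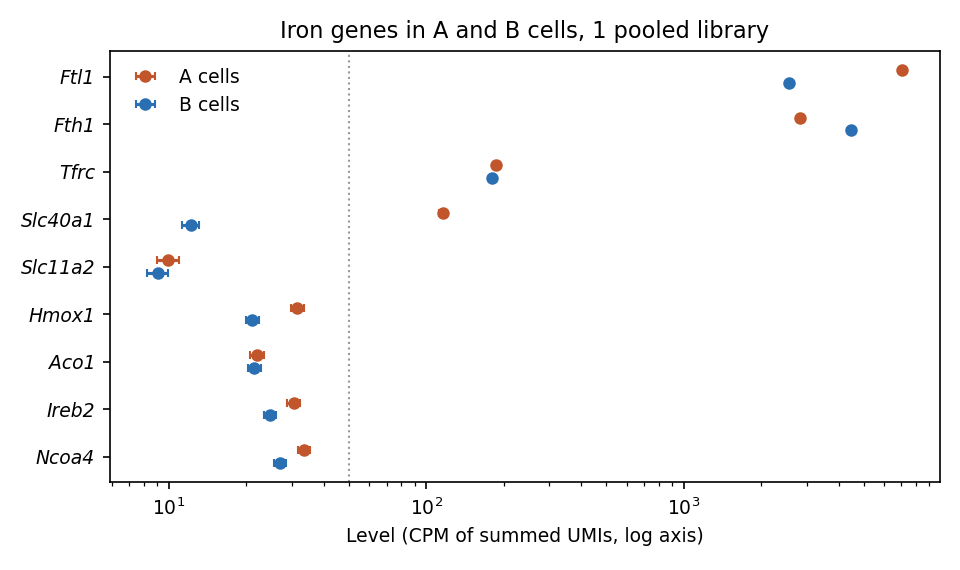
Level of each iron gene in A and B cells, in CPM of summed UMIs on a log axis, with bars for the exact 95% Poisson interval and a dotted line at 50 CPM. Slc40a1 shows the widest separation (116 against 12.1 CPM), and Ftl1 and Fth1 separate in opposite directions.

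The difference between the groups was also seen cell by cell. With every cell thinned at random to 3000 UMIs, which left out 410 A cells and 109 B cells with fewer, the median A cell held 20 Ftl1 UMIs (10th to 90th percentile, 11 to 32) and the median B cell held 7 (3 to 12). For Fth1 the medians were 8 (3 to 14) in A cells and 12 (6 to 21) in B cells. The distributions overlapped for both genes, more so for Fth1. With 50% as a dividing line for describing the spread, 95.2% of A cells and 14% of B cells had a larger share of Ftl1 among their ferritin UMIs. The median per-cell share of Ftl1 was 72.2% (10th to 90th percentile, 56.7 to 85.0) in A cells and 35.7% (20 to 54.5) in B cells.

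**Figure D2:**
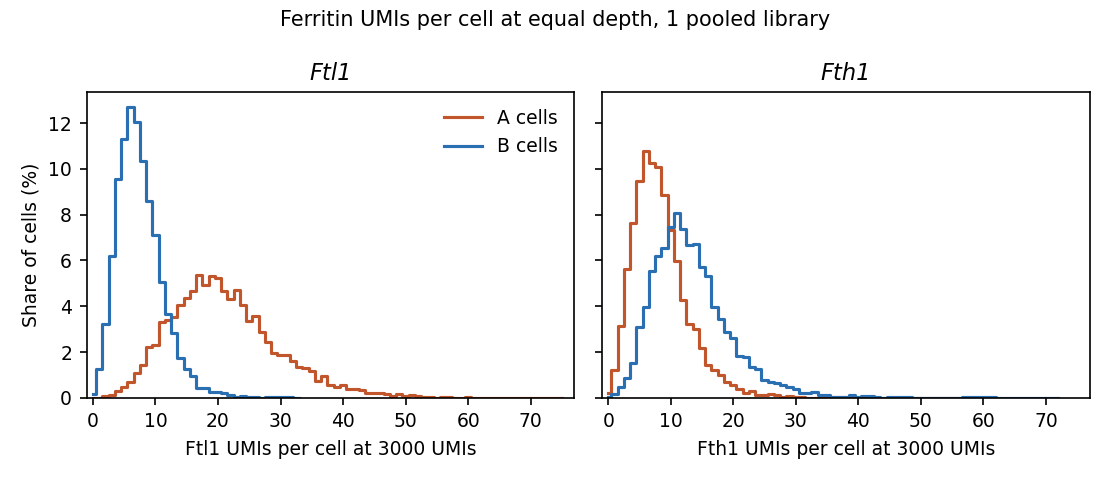
Share of A and B cells with each number of Ftl1 (left) and Fth1 (right) UMIs after thinning every cell to 3000 UMIs, with 7406 A cells and 8827 B cells. Medians are 20 and 7 UMIs for Ftl1 and 8 and 12 UMIs for Fth1, and the groups overlap for both genes.

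Ferritin levels at the edge of the marker rule followed the marker genes. Cells with 1 A marker UMI and no B marker UMI, just outside the rule, had 6662 CPM of Ftl1 and 2843 CPM of Fth1, and those with 2, just inside, had 6991 and 2870 CPM. On the B side the values were 2696 and 4562 CPM just outside and 2494 and 4498 CPM just inside. The mixed cells lay between the groups, at 4917 CPM of Ftl1 and 3801 CPM of Fth1, and 56.5% of these 643 cells were marked as doublets, against 1.89% of A cells and 2.32% of B cells. B cells whose B marker UMIs were only 3 to 4 times their A marker UMIs (99 cells) had 4377 CPM of Ftl1, well above the group, and A cells with the converse margin (139 cells) had 5889 CPM.

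Uptake genes hardly differed. Tfrc, the receptor that brings in transferrin-bound iron, was at 187 CPM in A cells and 180 CPM in B cells, a ratio of 1.04 (1.01 to 1.07). At 3000 UMIs per cell, 41.7% of A cells (40.6 to 42.8) and 40.2% of B cells (39.1 to 41.2) had a Tfrc UMI; without thinning the shares were 57.3% and 60.6%, in the opposite order. Slc11a2, the carrier DMT1 that moves iron out of endosomes, was the least abundant of the 9, at 9.96 CPM in A cells and 9.04 CPM in B cells, a ratio of 1.10 whose interval (0.962 to 1.26) included 1. It had a UMI in 3.07% of A cells and 2.54% of B cells at 3000 UMIs, and in 4.99% and 5.11% without thinning. No cell type known to lack these genes was in the library, so no background share from free RNA could be set beside these or the shares below.

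Slc40a1, which encodes the exporter ferroportin, differed most. It was at 116 CPM (112 to 119) in A cells and 12.1 CPM (11.2 to 13.1) in B cells, a ratio of 9.51 (8.76 to 10.3). At 3000 UMIs per cell it was found in 25.8% of A cells (24.8 to 26.8) and 3.53% of B cells (3.16 to 3.94), and without thinning in 37.7% and 6.51%. In B cells whose B marker UMIs were only 3 to 4 times their A marker UMIs, Slc40a1 was at 48.2 CPM (34.1 to 66.2), and in mixed cells it was at 49.6 CPM. Those 99 cells at the edge of the rule gave 38 of the 641 Slc40a1 UMIs of all B cells. With marked doublets left out, the log2 ratio was 3.40 in place of 3.25.

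The remaining genes were at low levels, and over all cells of the groups they differed by 1.5 times or less. Hmox1, the inducible heme oxygenase, was at 31.6 CPM in A cells and 21.1 CPM in B cells, a ratio of 1.5 (1.38 to 1.63). Its log2 ratio of 0.58 was 0.79 in cells of 1.5 to 3% mitochondrial UMIs, 0.75 with stricter cell limits and 0.42 in cells of 3000 to 6000 UMIs. Ncoa4, the receptor that delivers ferritin for autophagic breakdown, was at 33.4 and 27.1 CPM (ratio 1.24, 1.15 to 1.33). In cells of 1.5 to 3% mitochondrial UMIs its log2 ratio was 0.04 in place of 0.30, so the difference was all but absent there. Ireb2, which encodes iron regulatory protein 2, was at 30.5 and 24.7 CPM (ratio 1.23, 1.14 to 1.34). Aco1, whose product is cytosolic aconitase or iron regulatory protein 1 depending on its iron-sulfur cluster, was at 22.0 and 21.5 CPM (ratio 1.02, 0.937 to 1.12). At 3000 UMIs, the shares of A and B cells with a UMI were 7.82% and 5.59% for Hmox1, 9.64% and 8.07% for Ncoa4, 8.91% and 7.26% for Ireb2, and 6.41% and 6.25% for Aco1. Without thinning they were 11.96% and 11.05%, 15.3% and 14.1%, 14.6% and 13.4%, and 10.5% and 11.8%, so the order for Aco1 was the reverse without thinning, where B cells were deeper than A cells.

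Against the other genes of the matrix, 4 of the 9 reached 50 CPM in A or B cells, and 2 of these, Ftl1 and Slc40a1, differed by 2-fold or more, both higher in A cells. Slc40a1 passed the minimum through A cells alone, so it had to differ and its count and rank support nothing. Of the 3908 genes at 50 CPM or more, 14.3% differed by 2-fold or more, 7.6% being higher in A cells and 6.68% lower. The median log2 ratio of A over B cells was 0.11 over those genes. It was 0.76 over the 4 members past the same minimum, Slc40a1 among them, and 0.30 over all 9 members, which include those under it. Ftl1 stood above 96.3% of the genes and Slc40a1 above 98.98% in this ratio, and Fth1 stood above 11.6%.

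The ferritin genes lie on chromosomes whose genes were shifted in the same direction between the groups. Among genes at 50 CPM or more, the median log2 ratio of A over B was 0.52 over the other 254 on chromosome 7, where Ftl1 (log2 ratio 1.46) lies, and -0.57 over the 137 on chromosome 19, where Fth1 (-0.65) lies. The 20 nearest such genes had a median of 0.59 around Ftl1, with 18 above 0, and of -0.60 around Fth1, with 2 above 0. Fth1 therefore sat close to its chromosome, above 38.7% of its genes, while Ftl1 was above 94.9% of the genes of chromosome 7. The log2 ratio of Slc40a1 was 3.25 and the median of chromosome 1 was -0.09. Tfrc (0.06) lay below the median of chromosome 16 (0.36). Hmox1 (0.58) lay above that of chromosome 8 (0.32), and the medians of the chromosomes of Slc11a2, Aco1, Ireb2 and Ncoa4 were between -0.10 and -0.05. DNA copy number was not measured, and its part in these ratios was not tested.

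**Figure D3:**
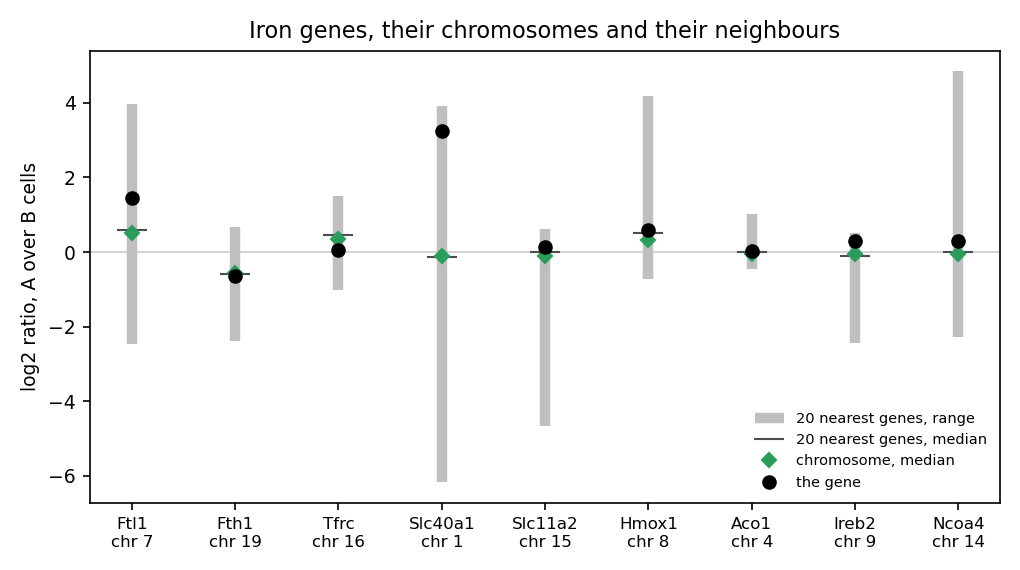
log2 ratio of A over B cells for each iron gene (black), the median over the genes of its chromosome at 50 CPM or more (green) and the range and median of its 20 nearest such genes (grey bar and dash). Fth1 lies close to its chromosome's median (-0.65 and -0.57), and Slc40a1 is plotted at 3.25 with a chromosome median of -0.09.

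Within each group, Ftl1 and Fth1 varied together from cell to cell, although the groups as wholes differed in opposite directions. Over 7406 A cells at 3000 UMIs, Pearson's r of log2(UMIs + 1) between Ftl1 and Fth1 was 0.34, and over 8827 B cells it was 0.22. These cells share 1 library and were set to 1 depth, and the values are descriptions over cells. Neither ferritin gene had as high an r with any other gene at 50 CPM or more in its group (3509 in A cells and 3261 in B cells). The median r over those genes lay between -0.01 and 0.00. By level, Ftl1 and Fth1 ranked 3rd and 46th in A cells, and 58th and 15th in B cells. Counting noise lowers r more for genes with fewer UMIs, so abundance could affect this comparison. It could also affect 0.34 against 0.22, as the median cell held 20 Ftl1 UMIs in A cells and 7 in B cells. The part of abundance was not tested. The other 35 pairs of the 9 genes had r between -0.03 and 0.13 in A cells and between -0.02 and 0.09 in B cells. In both groups the highest of these was Fth1 with Hmox1 (0.13 and 0.09). With counts this sparse, r near 0 for the low genes carries little information.

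The genes most like Fth1 in A cells were Gsta1 (r = 0.18), Lgals3 (0.17), S100a6 (0.16), Akr1b8 (0.16) and Esd (0.15), and in B cells Esd (0.16), Gsta4 (0.15), Prr13 (0.13), Crip1 (0.13) and Blvrb (0.12). Gsta1 and Gsta4 are glutathione S-transferases, and Blvrb is a biliverdin reductase. For Ftl1 they were 5 ribosomal-protein genes in A cells, led by Rps2 (0.26), and in B cells Gsta4 (0.12), Esd (0.11), Crip1 (0.11), Krt19 (0.10) and Nupr1 (0.10). All of these lay below the value for the pair of ferritin genes.

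Ordering the cells by 1 ferritin gene showed how the others moved along it. In A cells ordered by Fth1 UMIs, Ftl1 was at 5487 CPM (5390 to 5585) in the lowest decile (the 10% of cells with the fewest) and 9417 CPM (9289 to 9545) in the highest. Hmox1 was at 19.8 CPM (14.4 to 26.6) in the lowest and 92.8 CPM (80.6 to 106) in the highest. In B cells ordered the same way, Ftl1 was at 2166 and 3215 CPM and Hmox1 at 7.93 (4.91 to 12.1) and 40.4 CPM (33.1 to 48.9). Hmox1 was thus highest where Fth1 was highest in both groups. In A cells most of the difference lay in the top decile, with 37.4 CPM in the next one down, whereas in B cells the next one down was already at 25.7 CPM. In cells ordered by Ftl1, Fth1 was at 2115 and 4092 CPM and Hmox1 at 22.5 and 69.4 CPM in the lowest and highest deciles of A cells. In B cells the values were 3743 and 5658 CPM for Fth1 and 15.5 and 40.4 CPM for Hmox1. Tfrc was at 184 and 187 CPM in the lowest and highest deciles by Ftl1 in A cells and at 183 and 170 CPM in B cells. Along Fth1 it was at 191 and 204 CPM in A cells, and in B cells at 165 (150 to 181) and 195.01 CPM (179 to 213), a small difference with intervals that overlap slightly. Slc40a1 in A cells was at 98.5 and 157 CPM along Fth1, and at 122 (108 to 137) and 97.3 CPM (84.8 to 111) along Ftl1, where the intervals overlap.

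**Figure D4:**
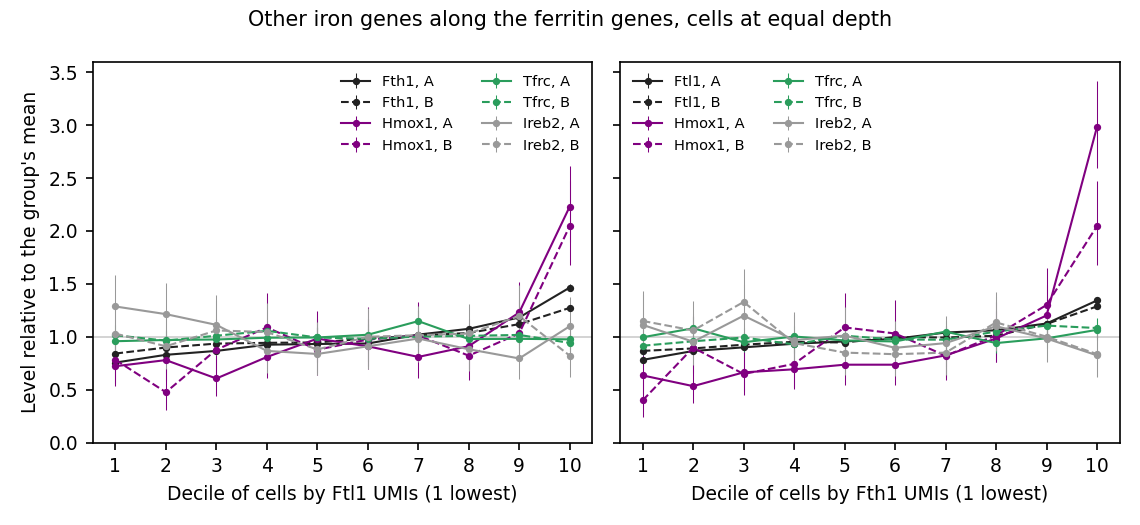
Level of the other ferritin chain, Hmox1, Tfrc and Ireb2 in deciles of A cells (solid) and B cells (dashed) ordered by Ftl1 (left) or Fth1 (right) UMIs at 3000 UMIs per cell, relative to the group's mean, with exact 95% Poisson intervals. The other ferritin chain is higher in the top decile than in the bottom, Hmox1 is highest in the top decile (92.8 CPM in A cells by Fth1) and Tfrc differs little along either gene.

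The same cells and counts were also grouped by Hmox1, which is another view of that relation and no further support for it. In A cells with 0, 1 and at least 2 Hmox1 UMIs at 3000 UMIs (6827, 503 and 76 cells), Fth1 was at 2723, 3420 and 4825 CPM. Ftl1 in the same cells was at 6934, 7662 and 9092 CPM. In B cells (8334, 467 and 26 cells), Fth1 was at 4392, 5179 and 6833 CPM and Ftl1 at 2474, 2797 and 4000 CPM. Both chains were therefore higher in the few cells with several Hmox1 UMIs. Slc40a1 in those A cells was at 120, 113 and 96.5 CPM (60.5 to 146 in the last), with intervals that overlap.

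States within each group were set by other marker genes. Among A cells, 1142 had the genes S100g, Epcam and Tm4sf20 in excess, 2478 had Tnc, Acta2 and Ptchd4 in excess (each at least 2 UMIs and 3 times the other set), and 4196 met neither rule. Slc40a1 was at 246 CPM in the S100g/Epcam state and 68.0 CPM in the Tnc/Acta2 state, a ratio of 3.62 (3.33 to 3.93), and even the lower of the 2 was above the 12.1 CPM of B cells. It was the only member past 2-fold among the 4 that reached the minimum of 50 CPM, against 3.2% of 3809 genes. Ncoa4 was at 45.8 and 29.5 CPM in these states, a ratio of 1.55 (1.32 to 1.81). Hmox1 went the other way, at 24.8 and 38.0 CPM, a ratio of 0.653 (0.538 to 0.789). Ftl1 (6394 and 7063 CPM), Fth1 (3016 and 2689 CPM) and Tfrc (202 and 177 CPM) differed by under 1.14 times. S100g encodes a calcium-binding protein of absorptive epithelium, and Epcam an epithelial adhesion molecule, while Tnc and Acta2 encode a matrix glycoprotein and smooth-muscle actin.

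Among B cells, 541 had Krt14 and Sprr1a in excess, genes of stratified epithelium, and 4714 had Areg, Btc and Cftr in excess. Ftl1 was at 2954 and 2483 CPM (ratio 1.19, 1.17 to 1.21) and Fth1 at 5130 and 4480 CPM (1.15, 1.13 to 1.16), both higher with Krt14 and Sprr1a. Hmox1 was at 32.5 and 19.4 CPM, a ratio of 1.67 (1.35 to 2.05). For the other 6 genes the interval of the ratio included 1, among them Slc40a1 at 13.3 and 11.2 CPM. No member reached 2-fold between these states, against 0.722% of 3463 genes.

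In A cells, those with few cell-cycle messengers had higher Slc40a1, Ncoa4 and Hmox1, and in B cells they had higher Hmox1. The 745 A cells in the lowest decile for 12 late-mitosis and 14 replication genes summed had 262 CPM of Slc40a1 (241 to 284), against 119 CPM (115 to 124) in all A cells at 3000 UMIs. Ncoa4 was at 57.3 CPM (47.8 to 68.1) against 34.5, Hmox1 at 51.0 CPM (42.1 to 61.3) against 31.1, and Fth1 at 3315 CPM (3239 to 3391) against 2792. Ftl1 (6612 against 7006 CPM) and Tfrc (183 against 191 CPM) were not higher there. In the lowest decile of B cells, 1092 cells, Hmox1 was at 31.4 CPM (25.7 to 38.1) against 19.8, Fth1 at 5045 against 4441, Ftl1 at 2797 against 2496 and Ncoa4 at 36.6 (30.4 to 43.8) against 28.5 CPM. Slc40a1 was at 15.9 CPM (11.9 to 20.8) in this lowest decile of B cells against 12.2 (10.9 to 13.6), with intervals that overlap. Ncoa4 was as high in the B cells with the most replication messengers, at 36.9 CPM (31.4 to 43.2).

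In A cells this set overlapped the S100g/Epcam state, which held 40.5% of the lowest decile and 14.2% of all A cells at 3000 UMIs. Slc40a1 was higher in the lowest decile within each state. It was at 397 CPM (357 to 441) inside and 188 CPM (170 to 206) outside that decile in the S100g/Epcam state, at 114 (82.9 to 152) and 65.3 CPM (59.4 to 71.6) in the Tnc/Acta2 state, and at 194 (167 to 224) and 109 CPM (103 to 116) in the cells of neither. Depth moved with these values: Slc40a1 was at 190 CPM in the shallowest quintile of A cells and 92.8 CPM in the deepest, and the lowest decile had a median of 4026 UMIs before thinning against 4794.5 UMIs in all. The mitochondrial share moved with them too, with Slc40a1 at 72.6 CPM in the quintile of A cells with the lowest share and 187 CPM in the quintile with the highest. Hmox1 went from 51.3 to 26.1 CPM over the same quintiles and Ftl1 from 7676 to 6043 CPM. The part of depth and of the mitochondrial share in these differences was not tested.

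**Figure D5:**
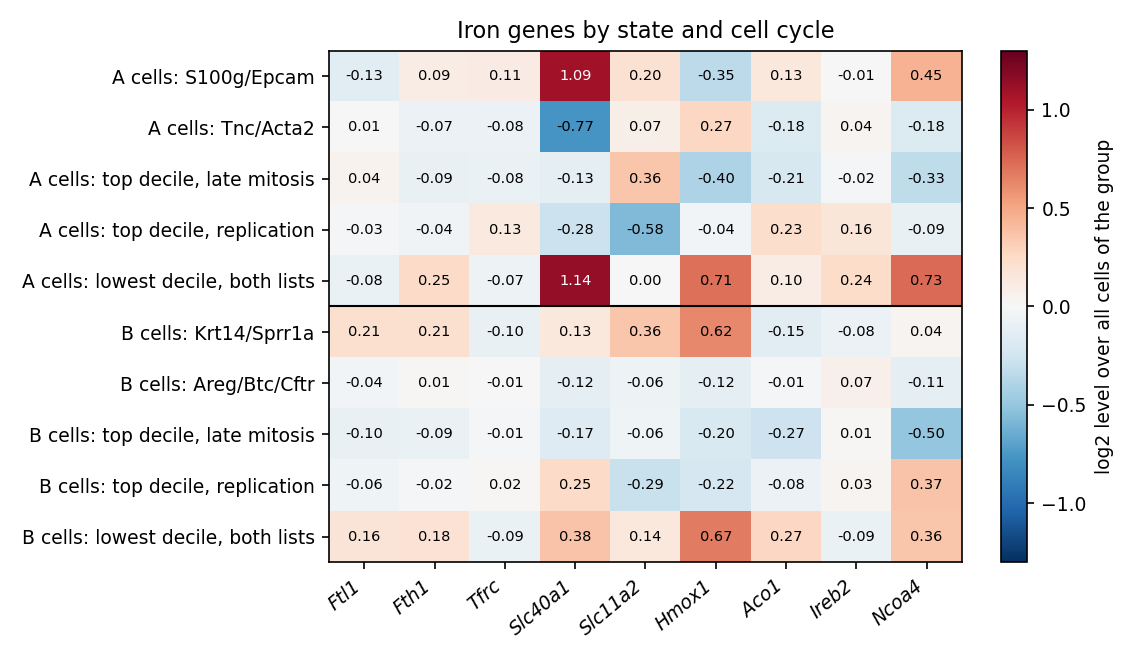
log2 level of each iron gene in a state or cell-cycle set over the level in all cells of the same group, with A cells above the line and B cells below. Slc40a1 stands out in A cells (1.09 in the S100g/Epcam state and 1.14 in the lowest decile of cell-cycle UMIs), and Hmox1 is higher in the lowest decile of both groups (0.71 and 0.67).

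Of the other genes of iron handling, 83 in 5 lists, 34 reached 50 CPM, of which 4 were 2-fold or more higher in A cells and 1 in B cells, beside 14.3% of all genes tested either way. The median log2 ratio of those past the minimum was 0.42 in the heme list, 0.20 in that of ferroptosis and NRF2, 0.00 in that of mitochondrial iron, -0.02 in that of chaperones and regulators and -0.45 in that of uptake, reduction and oxidation, beside 0.11 over all genes. Trf, Gclc, Herc2, Blvra, Nubp2, Acsl4 and Lpcat3 passed the minimum through A cells alone, and Steap1, Steap2 and Fdx1 through B cells alone. These had to differ, so their ratios are descriptions. The same holds for the counts that include them and for the list medians. Each list median includes such genes, and that of uptake, reduction and oxidation rests on them alone. Trf, which encodes transferrin itself, was at 66.2 CPM in A cells and 5.89 CPM in B cells, a ratio of 11.2 (9.98 to 12.7). Of the 16 genes of uptake, reduction and oxidation, 3 reached the minimum. Besides Trf these were Steap1 (32.0 and 56.9 CPM), a member of a metalloreductase family, and its relative Steap2 (39.4 and 53.8 CPM). Gclc, the catalytic subunit of the enzyme that starts glutathione synthesis, was at 112 and 24.8 CPM, a ratio of 4.51 (4.24 to 4.80), while Gpx4, the peroxidase that guards membranes against iron-driven lipid oxidation, was at 658 and 1049 CPM. In the heme list, the transporter Abcg2 was at 110 and 54.6 CPM, and Blvrb at 54.5 and 135 CPM, so that Blvrb was 2.48 times (2.36 to 2.60) higher in B cells. Herc2, a ubiquitin ligase, was at 69.8 and 32.8 CPM, and the iron chaperone Pcbp1 at 381 and 428 CPM. None of the 13 mitochondrial iron and iron-sulfur genes past the minimum reached 2-fold, from Nubp2 (51.3 and 34.3 CPM) to Glrx5 (85.8 and 124 CPM), and Cisd1 was at 186 and 191 CPM.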

How the data were processed

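The deposited matrix holds whole-number UMI counts per gene and barcode, not normalized, which the authors made with Cell Ranger 8.0.1 per the file headers, on GRCm39 per the submitters' processing notes. The annotation and the cell calling are not given in the sources used here. The members, marker sets and gene lists were chosen with earlier results of these data known. UMIs were summed per group and divided by the group's total (CPM), and shares and correlations used cells thinned to 3000 UMIs without replacement. The median depth was 4953 UMIs over the 21361 cells kept, and 410 A cells and 109 B cells fell under 3000. Scrublet in scanpy 1.11.5 marked 787 doublets, which stayed in except in 1 alternative. The folds were counted among genes at 50 CPM or more. All 9 members are named in full; of the other lists, the highest and lowest ratio and the most abundant gene were to be named, and for likeness the 5 highest r. GENCODE M21 (GRCm38) served for chromosomes, gene order and hairpins, with 32012 of 33696 features matched by identifier. The scripts were tested on simulated data. Alternatives varied the cell filter, marker rule, depth, mitochondrial share and total.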

Additional observations from a re-analysis of the deposited data

Results flagged for a closer look

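Ftl1-ps1, annotated as a copy of Ftl1 and outside the comparisons above, had 5435 UMIs over all cells past the filter. It was at 64.5 CPM in A cells and 31.6 CPM in B cells, a ratio of 2.04 (1.92 to 2.17), and its UMIs came to 0.920% and 1.24% of those of Ftl1. The matrix does not show whether these UMIs come from the copy or from Ftl1 itself. The ferritin genes were also well detected in the 817 barcodes that the cell filter removed, with 3326 CPM of Ftl1 and 2599 CPM of Fth1. These barcodes had a median of 1087 UMIs and a median mitochondrial share of 11.1%.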

How the results depend on the processing

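No paired analysis was possible because 1 library holds all cells. Aco1, near equal in both groups (log2 ratio 0.03), was at -0.02 in cells of 3000 to 6000 UMIs and just under 0 in cells of 1.5 to 3% mitochondrial UMIs. No other ratio changed direction under any alternative run. The count of members past 2-fold stayed at 2 under all 10, beside 13.0% to 17.6% of all genes. Slc40a1, 1 of the 2, passed the 50 CPM minimum through A cells alone in the main setting, so its part in that count supports nothing. The log2 ratio of Ftl1 (1.46) was 1.44 with stricter cell limits, 1.5 with no UMI of the other marker set allowed and also with marked doublets left out, 1.47 without mitochondrial and ribosomal genes in the total, 1.49 with cells weighing equally, 1.56 in cells of 3000 to 6000 UMIs and 1.54 in cells of 1.5 to 3% mitochondrial UMIs. That of Fth1 (-0.65) was -0.62 with stricter cell limits, -0.67 without doublets and with cells weighing equally, -0.64 without mitochondrial and ribosomal genes, -0.68 in cells of 3000 to 6000 UMIs and -0.59 at 1.5 to 3% mitochondrial UMIs. Adding Ftl1-ps1 to Ftl1, an alternative chosen after seeing the data, gave 1.45. The correlation of the ferritin genes in A cells was 0.41 in place of 0.34 when cells were thinned to 6000 UMIs. The log2 ratio of Slc40a1 between the A states was 2.36 in place of 1.85 when a state needed at least 4 UMIs. The ratios of Ftl1, Fth1 and Slc40a1 listed here, apart from that with Ftl1-ps1, lay outside the counting interval of the main value, and the correlation by more than a set tolerance of 0.05; the cause was not tested. Of 82 ratios of A over B cells recomputed, 57 stayed within counting error; that of Slc40a1 ranged from 2.82 to 3.49, and that of Ncoa4 (0.30) was 0.04 at 1.5 to 3% mitochondrial UMIs. Of 36 shares of cells with a UMI at other depths, 33 moved, so shares depend on the depth chosen. With 1 library, the spread between cultures is unknown. Genes under 50 CPM, Slc11a2 above all, had a UMI in few cells.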
